A study of Mus musculus with 10 samples.

Results

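The 10 genes described here encode the adhesive and plaque proteins of the desmosome: the desmogleins *Dsg1a*, *Dsg1b*, *Dsg2*, *Dsg3* and *Dsg4*, the desmocollins *Dsc1*, *Dsc2* and *Dsc3*, desmoplakin (*Dsp*) and plakoglobin (*Jup*). They were chosen by gene symbol from the 24452 named genes of the count table. All 10 passed the filter on low counts, and so belong to the 15543 genes tested. RNA came from full-thickness back skin of 5 wild-type (WT) and 5 knockin (KI) C57BL/6 mice, with littermates as controls. The KI mice carry the TTP delta ARE allele, in which an instability element in the 3′-UTR of the endogenous *Zfp36* gene is deleted, so that tristetraprolin (TTP), an RNA-binding protein that shortens the life of AU-rich mRNAs, is raised throughout the body and not in a chosen cell type. All 10 mice, which were 7 weeks old at the start, had their backs shaved, received 400 nmol of the mutagen DMBA a single time and then 10 nmol of the phorbol ester TPA at each of the repeated applications over 20 weeks. The skin sampled had been treated but held no tumor, and there was no untreated group. In the study, tumors elsewhere on the treated skin were fewer and later in KI than in control mice. The labels do not give the tumor counts of these 10 mice. Each library is 1 mouse.

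Desmosomes rivet neighbouring epithelial cells together. The desmogleins and desmocollins are cadherins that span the gap between cells. Inside the cell their tails bind plakoglobin and the plakophilins, and these bind desmoplakin, which anchors the keratin filaments. In skin the cadherins are layered: *Dsg3* and *Dsc3* are strongest in the basal layers, *Dsg1* and *Dsc1* in the differentiated layers above, *Dsg2* and *Dsc2* are the widely expressed pair found also in simple epithelia, and *Dsg4* is made chiefly in the hair shaft and the uppermost epidermis. Loss of *Dsg4* gives fragile, lance-shaped hairs, and desmogleins 1 and 3 are the autoantigens of pemphigus.

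Total counts ranged from 21638400 to 32583217 in the WT and from 19595035 to 36419573 in the KI libraries. *Zfp36*, the gene that carries the deletion, had 2152 ± 277 normalized counts (scaled to a common library size) in WT and 5427 ± 766 in KI (SD, n = 5 per group). The groups did not overlap, and the log2 fold change was 1.33 (SE 0.12, adjusted p = 0.0019). The labels do not give the sex of the animals. Summed counts of Y-linked genes were at most 1 in the 5 WT libraries and in KI replicate 1, and were 3349 or more in KI replicates 2 to 5, so that sex and genotype cannot be fully told apart. WT replicates 1 and 3 stood apart from the other WT libraries in hair: the mean log2(CPM + 1) of 9 hair shaft keratins (CPM, counts scaled to library size) was 5.34 and 2.48 there, between 8.05 and 8.50 in the other WT libraries and between 9.20 and 10.7 in KI. Epidermal markers were present in every library, with the mean log2(CPM + 1) of 6 basal keratinocyte genes between 9.63 and 9.98 in WT and between 9.37 and 9.93 in KI. The samples were whole skin, and skeletal muscle (9.52 to 11.8 in WT, 8.58 to 9.76 in KI), fat, fibroblast, endothelial and macrophage genes were measured too. In such tissue, fewer cells of a type and less RNA per cell cannot be told apart.

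In the mm10 (GRCm38) genome the 8 cadherin genes form 1 cluster on chromosome 18. *Dsc3* (19960930 to 20002351), *Dsc2* (20030633 to 20059554) and *Dsc1* (20084184 to 20114871) lie on the minus strand, followed by *Dsg1a* (20310811 to 20343350), *Dsg1b* (20376729 to 20410196), *Dsg4* (20436175 to 20471821), *Dsg3* (20510274 to 20547459) and *Dsg2* (20558074 to 20604521) on the plus strand. *Dsg1a* and *Dsg1b* are near copies: 31.6% of the windows of 100 bases in the *Dsg1b* transcript occur unchanged in *Dsg1a*, and 21.9% of those of *Dsg1a* occur in *Dsg1b*. Of the windows of 100 bases, 9.09% of those of *Dsg1a* and 10.5% of those of *Dsg1b* also occur in *Dsg1c*. How such fragments were counted is not given in the sources used here, so the split among *Dsg1a*, *Dsg1b* and *Dsg1c* is uncertain. Exons of *Dsg2* overlap the gene *Gm16090*.

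*Dsc2* was the only member that changed with genotype at an adjusted p below 0.05 in edgeR's quasi-likelihood test, with a fold above 2. Thus 1 of 10 members was called higher and 0 lower, beside 15.3% of all tested genes called higher and 34.3% called in either direction. With the added condition of a fold over 2, the threshold used in the study, 1 of 10 members was higher, against 1.67% of all genes. DESeq2, the tool of the study, called 4 of 10 members higher (*Dsg2*, *Dsg4*, *Dsc1* and *Dsc2*) and 19.7% of all genes. The 5 KI values all lay above the 5 WT values for *Dsg4* and *Dsc1*, 2 of 10 members, where 23.1% of all genes had groups that did not overlap in either direction. The median log2 fold change of the 10 members was 0.21, beside 0.0076 over all tested genes. *Dsc2* (1.90) and *Dsg4* (1.53) had the largest log2 fold changes of the 10, and those of the other 8 ran from -0.05 to 0.37.

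**Figure D1:**
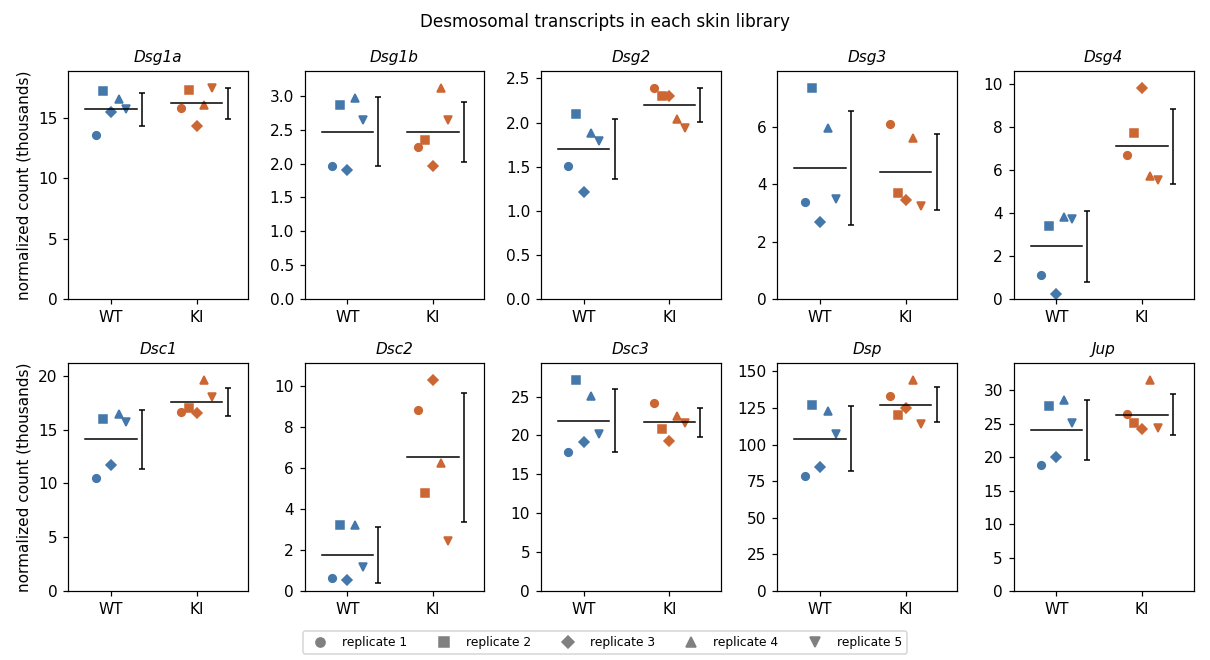
Normalized counts, divided by 1000 (vertical axis, from 0, its own scale in each panel) of the 10 desmosomal genes in each library of WT (blue) and KI (orange) skin, with a symbol for each replicate, a line at the mean and a bar of 1 SD beside it. *Dsg4* and *Dsc1* are the 2 genes whose groups do not overlap, and WT replicates 1 and 3 are the lowest 2 WT libraries for all 10 genes.

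Levels were compared between genes per length, as FPKM (fragments scaled to gene length and library size). *Dsp* was the highest member in both groups, at 407 ± 86 FPKM in WT and 498 ± 46 in KI (SD, n = 5), and its range did not touch that of the next gene, *Jup* (180 ± 33 and 197 ± 23). *Dsc3* followed at 153 ± 28 and 152 ± 13, its WT range overlapping that of *Jup*. *Dsc1* (105 ± 21) and *Dsg1a* (105 ± 9) could not be ordered in WT, whereas in KI *Dsc1* (131 ± 10) lay above *Dsg1a* (108 ± 8) in 5 of 5 libraries. The WT order ended with *Dsg3* (41.7 ± 18), *Dsg1b* (27.2 ± 5.6), *Dsg4* (26.5 ± 18), *Dsc2* (14.1 ± 11) and *Dsg2* (11.1 ± 2.2), in which every neighbouring pair overlapped. In KI, *Dsg4* (76.6 ± 19) and *Dsc2* (52.4 ± 25) ranked above *Dsg3* (40.3 ± 12), *Dsg1b* (27.2 ± 4.8) and *Dsg2* (14.4 ± 1.3), although the ranges of *Dsg1a*, *Dsg4*, *Dsc2*, *Dsg3* and *Dsg1b* overlapped from each gene to the next.

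Among the desmogleins, *Dsg4*, which builds the desmosomes of the hair shaft, varied most among the WT libraries, with a coefficient of variation of 67.6%. In KI *Dsg3* varied more (29.8% against 24.8%). The normalized counts of *Dsg4* were 1138, 3379.6, 222, 3802 and 3742 in WT replicates 1 to 5 and 6716, 7721, 9840.2, 5727 and 5533 in KI replicates 1 to 5. WT replicates 1 and 3 were far below the other WT libraries, and every KI library was above every WT library. The means were 2457 ± 1662 and 7108 ± 1759.5 (SD, n = 5), a 2.89-fold difference whose 95% interval ran from 1.14 to 7.36 (log2 fold change 1.53, SE 0.60). The adjusted p was 0.073, so that *Dsg4* did not pass the test with all libraries. Without WT replicates 1 and 3 the difference was smaller, 0.96 on the log2 scale, and did pass (adjusted p = 0.014), in a fit that called 6.87% of all genes higher.

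*Dsg2*, the desmoglein of simple epithelia and of the hair follicle as well, was low in all libraries. It measured 1513, 2094, 1217, 1884 and 1786 normalized counts in WT and 2396, 2299, 2305, 2040.1 and 1942 in KI. All 5 KI values exceeded the WT median, and KI replicates 4 and 5 lay below WT replicate 2. The log2 fold change was 0.37 (SE 0.13, 95% interval 0.078 to 0.66) with an adjusted p of 0.051, just outside the threshold.

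The epidermal desmogleins gave no genotype difference past the test. *Dsg1a*, the main desmoglein of the differentiated layers, ranged from 13600.0 to 17237 normalized counts in WT and from 14373 to 17514 in KI. Its coefficient of variation was 8.71% in WT, the lowest of the 10 members there, and 7.80% in KI, where *Dsc1* was lower at 7.41%. Its log2 fold change of 0.045 had a 95% interval of -0.15 to 0.24. *Dsg1b*, its near copy, measured 2470.1 ± 507 and 2466 ± 440.3. *Dsg3*, the basal desmoglein, spread more widely, from 2688 to 7367 in WT and from 3257 to 6086 in KI, with a log2 fold change of -0.05 and an interval of -0.70 to 0.61. That interval still holds a difference of 1.5-fold higher for *Dsg3*, while for *Dsg1a* it ends at 1.18-fold higher.

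As a share of the summed FPKM of the 5 desmogleins, *Dsg4* made up 11.5 ± 7.0% in WT (up to 18.5%) and 28.7 ± 6.6% in KI (23.1% to 39.3%). *Dsg1a* made up 51.1 ± 9.0% and 40.7 ± 4.3%. Since shares add to a fixed total, a larger share of *Dsg4* lowers the others without any change in them. *Dsg2* held 5.30 ± 0.43% and 5.39 ± 0.31%.

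Among the desmocollins, *Dsc2*, the widely expressed form, rose in KI skin. Its normalized counts were 613, 3217, 515, 3220.2 and 1186 in WT replicates 1 to 5 and 8853, 4802, 10307, 6257 and 2418 in KI replicates 1 to 5. Of the KI libraries, 4 were above every WT library, and KI replicate 5 lay below WT replicates 2 and 4, so the groups overlapped. The means were 1750.3 ± 1365 and 6527 ± 3148 (SD, n = 5), a 3.73-fold difference with a 95% interval of 1.47 to 9.45 (log2 fold change 1.90, SE 0.60, adjusted p = 0.036). The call was near the threshold and was lost without some single libraries. Leaving out any 1 of WT replicates 1, 3 and 5 or KI replicates 1 to 4 gave adjusted p values between 0.054 and 0.082. The log2 fold changes there were between 1.66 and 1.99. Without both WT replicates 1 and 3 the log2 fold change was 1.36 (adjusted p = 0.098).

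*Dsc1*, the desmocollin of the differentiated layers, measured 10533, 15984, 11708, 16430.2 and 15722 normalized counts in WT and 16666, 16972, 16504, 19628 and 18052 in KI. The groups did not overlap, but the gap was narrow: WT replicate 4 reached 16430.2 and KI replicate 3 had 16504. The log2 fold change was 0.32 (SE 0.13, 95% interval 0.028 to 0.61, adjusted p = 0.082). *Dsc3*, the basal form, ranged from 17821 to 27159 in WT and from 19271 to 24183 in KI, with a log2 fold change of -0.01 (95% interval -0.29 to 0.27). *Dsc2* made up 4.68 ± 2.9% of the summed desmocollin FPKM in WT and 15.3 ± 6.8% in KI, while *Dsc1* held 38.8 ± 3.0% and 39.3 ± 4.1%.

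Of the plaque proteins, *Dsp* lies on the plus strand of chromosome 13, between 38151294 and 38198577 (24 exons, overlapping *Gm10129*) and *Jup* on the minus strand of chromosome 11, between 100368958 and 100397763 (14 exons). *Dsp*, the plakin that ties the junction to keratin, had 78427, 127247, 84459, 123240.0 and 107363 normalized counts in WT and 133156, 120276, 124972, 144374 and 114361 in KI. WT replicates 1 and 3 were again the lowest, and WT replicates 2 and 4 lay within the KI range. The log2 fold change was 0.29 (SE 0.15, 95% interval -0.04 to 0.62, adjusted p = 0.15). *Jup*, the armadillo protein shared with adherens junctions, ranged from 18804 to 28602 in WT and from 24219 to 31558 in KI, with a log2 fold change of 0.13 (95% interval -0.17 to 0.43).

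**Figure D2:**
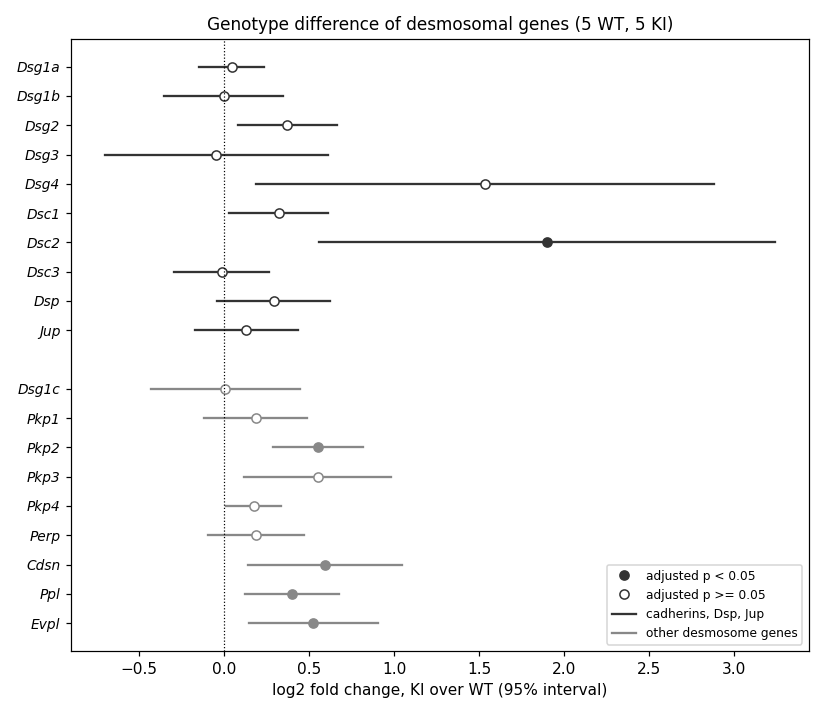
Log2 fold change of KI over WT (horizontal axis) with its 95% interval from edgeR for the 10 members (dark) and for 9 other desmosome genes (grey), with filled points where the adjusted p was below 0.05. *Dsc2* (1.90) and *Dsg4* (1.53) lie furthest to the right with the widest intervals, and only *Dsc2* among the members is filled.

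TTP acts on mRNAs through AU-rich sites whose core is the pentamer ATTTA, so the annotated 3′-UTRs were searched for ATTTA on the coding strand. The sequences of sites in the cadherin genes are not reported here. *Dsp* held 2 ATTTA in 645 bases. Both are given 5′ to 3′ on the plus strand of mm10 as read from the GENCODE transcripts, with the pentamer in capitals.
*Dsp* site 1, chr13:38198064-38198088: gtaaaggctcATTTAgctctgtagc
*Dsp* site 2, chr13:38198159-38198183: tgaatttggaATTTAtttcttccat
The pentamers themselves begin at bases 142 and 237 of the 3′-UTR, and neither is part of the longer motif TATTTAT. Of the 3′-UTRs of similar length among all genes, 58.5% held at least 1 ATTTA. *Jup* held 0 in 845 bases, where 66.9% of 3′-UTRs of similar length held 1 or more.

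Of the cadherins, *Dsc2* held 7 ATTTA in a 3′-UTR of 1781 bases, against a median of 3 for 3′-UTRs of similar length, of which 87.8% held at least 1. *Dsg4* held 0 in 218 bases and *Dsc3* held 0 in 402 bases, where 27.8% and 43.1% of 3′-UTRs of similar length held at least 1. *Dsg3* had 4, where the median of 3′-UTRs of similar length was 5, and *Dsg2* had 1, where it was 3. *Dsg1a* had 3 (median 3), *Dsc1* had 3 (median 1) and *Dsg1b* had 1 (median 1). The longer TATTTAT was present among the members in *Dsg1a* alone, whose 3′-UTR has 2305 bases, and in 42.2% of 3′-UTRs of similar length. It was present in 27.8% of the 14290 3′-UTRs of all tested genes, whose median length was 994 bases. A match describes the letters in the annotated 3′-UTR and was not tested for binding.

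Ratios of 2 transcripts within a library do not depend on how libraries are scaled. They still depend on the mix of cells in the sample, and they were not adjusted for hair content. Each of 8 log2 ratios of counts was compared between groups by an exact two-sided permutation test, whose smallest possible p with 5 against 5 is 0.0079, with Benjamini-Hochberg adjustment over the 8. Relative to *Dsp*, *Dsg4* was higher in KI by 1.76 on the log2 scale (exact p = 0.0079, adjusted p = 0.032), with values of -8.56 to -4.84 in WT and -4.66 to -3.67 in KI that did not overlap. *Dsc2* relative to *Dsc3* was higher by 2.15 (exact p = 0.024, adjusted p = 0.038), with KI replicate 5 at -3.16 inside the WT range of -5.21 to -2.96. These 2 ratios move with the same counts as the results above and are no independent evidence for them.

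Smaller shifts in balance, here and within the plaque, also passed, and they too rest in part on counts given above. *Dsc1* relative to *Dsc3*, the differentiated against the basal desmocollin, was higher in KI by 0.34 (exact p = 0.016, adjusted p = 0.032). WT ranged from -0.76 to -0.36 and KI from -0.54 to -0.20, with WT replicate 5 among the KI values and KI replicate 1 among the WT values. The corresponding desmoglein ratio, *Dsg1a* plus *Dsg1b* over *Dsg3*, differed by 0.031 (exact p = 0.89, adjusted p = 0.89), so the balance of differentiated to basal forms differed past the test for the desmocollins and not for the desmogleins. Whether the 2 ratios differed from each other was not tested. *Dsg2* over *Dsg3* differed by 0.38 (exact p = 0.15, adjusted p = 0.20).

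Within the plaque, *Jup* relative to *Dsp* was lower in KI, with a difference of -0.17 (exact p = 0.016, adjusted p = 0.032). The spread was small, from -2.20 to -2.06 in WT and from -2.37 to -2.19 in KI, and only WT replicate 2 and KI replicate 4 overlapped. *Dsp* relative to *Krt5*, the basal keratin, was higher in KI by 0.38 (exact p = 0.0079, adjusted p = 0.032), from -0.18 to 0.016 in WT and from 0.017 to 0.54 in KI. These groups did not overlap, and WT replicate 5 and KI replicate 4 were the nearest. *Jup* relative to *Ctnnb1*, which encodes its adherens junction relative β-catenin, differed by -0.15 (exact p = 0.20, adjusted p = 0.23).

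**Figure D3:**
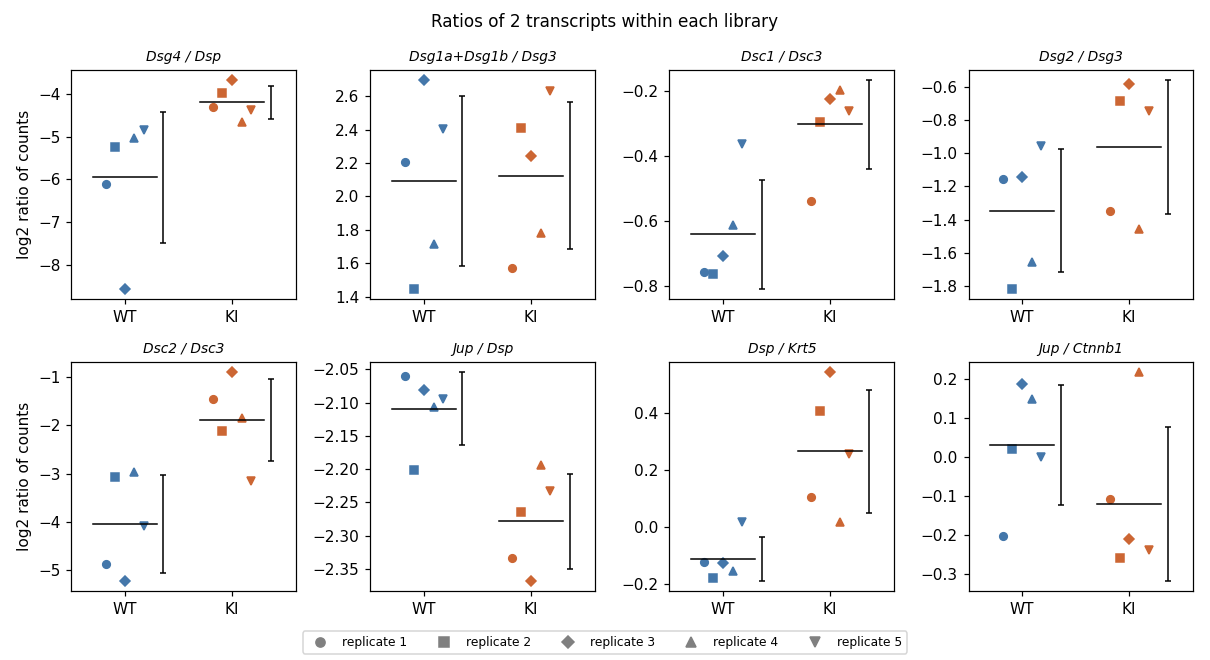
Log2 ratio of the counts of 2 transcripts (vertical axis, its own scale in each panel) in each WT (blue) and KI (orange) library, with a symbol for each replicate, a line at the mean and a bar of 1 SD beside it. *Dsg4* over *Dsp* and *Dsp* over *Krt5* do not overlap between groups, and *Dsg1a* plus *Dsg1b* over *Dsg3* covers the same range in both.

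The 2 largest differences went along with hair. Over the 10 libraries, *Dsg4* ran along with the hair shaft keratin score, from its lowest value in WT replicate 3, where the score was 2.48, through WT replicate 1 at 5.34 to its highest in KI replicate 3, where the score was 10.7. All 9 of the 9 hair shaft keratins had groups that did not overlap, beside 23.1% of all genes in either direction, and their median log2 fold change was 2.30. Only 1 of 9, *Krt35*, was called (7422 ± 4309.9 against 19263 ± 5090.4 normalized counts, adjusted p = 0.048), where 15.3% of all genes were called higher. With that score as a covariate, the log2 fold change of *Dsg4* was -0.07 (adjusted p = 0.83), that of *Dsc2* 0.70 (adjusted p = 0.60), that of *Dsg2* 0.03 (adjusted p = 0.92), that of *Dsc1* 0.07 (adjusted p = 0.86) and that of *Dsp* 0.0074 (adjusted p = 0.99). This fit called 0.251% of all genes in either direction, and since the score itself did not overlap between the groups, hair content and genotype cannot be told apart by it. *Dsc2* followed the score less closely: WT replicates 2, 4 and 5 had scores between 8.05 and 8.50, yet *Dsc2* counts of 3217, 3220.2 and 1186.

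**Figure D4:**
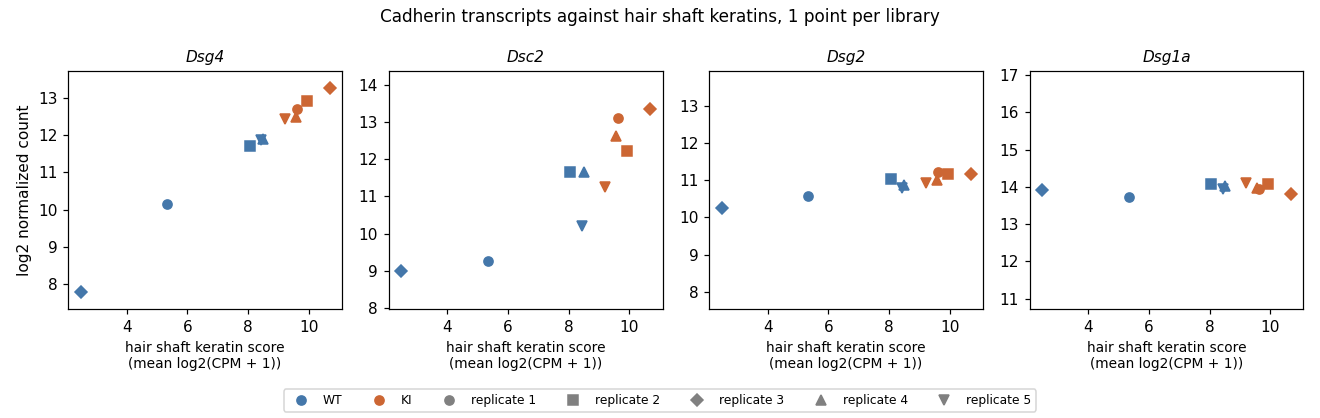
Log2 normalized count (vertical axis, the same span in each panel) of *Dsg4*, *Dsc2*, *Dsg2* and *Dsg1a* against the mean log2(CPM + 1) of 9 hair shaft keratins (horizontal axis), 1 point per library, WT blue and KI orange. *Dsg4* climbs steadily along the axis from WT replicate 3 at a score of 2.48 to KI replicate 3 at 10.7, *Dsc2* climbs with more scatter, and *Dsg1a* changes little.

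KI replicate 1, the KI library without Y-linked counts, had 6716 normalized counts of *Dsg4*, 8853 of *Dsc2*, 2396 of *Dsg2* and 16666 of *Dsc1*. For each of these genes it lay within or above the range of the other KI libraries and above all 5 WT libraries. Set alone against the 5 WT libraries, it gave log2 fold changes of 1.45 for *Dsg4* (adjusted p = 0.52) and 2.34 for *Dsc2* (adjusted p = 0.32), in a fit with edgeR that called 0 of 16373 genes tested, 2572 of which had an unadjusted p below 0.05. The lone sample was assumed there to vary like the WT group.

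Beyond the genotype means, the members also varied with one another. As a description, Pearson's r was taken between deviations from the group means of log2(CPM + 1) over the 10 libraries of both groups together. Each library's value of every gene comes from the same depth and the same hair content, and no r was taken within a single genotype. The plaque pair *Dsp* and *Jup* stood at 0.97, *Dsc1* and *Jup* at 0.93, *Dsg2* and *Dsg4* at 0.91, *Dsg1b* and *Dsc1* at 0.91 and *Dsg3* and *Dsc3* at 0.90. High values were not confined to genes of the same layer. *Dsp* stood at 0.90 with *Dsc1* and at 0.86 with *Dsc3*, and *Dsg1a* at 0.68 with *Dsc1* and at 0.69 with *Dsc3*. The lowest values were those of *Dsg1a* with *Dsc2* (0.17) and with *Dsg4* (0.23).

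Among all genes averaging 50 normalized counts or more, those nearest to *Dsg4* by this measure were *Ly6g6d*, the hair keratin *Krt83* and *Csdc2*, each with r = 0.996, and with 0.97, 0.95 and 0.94 over the 8 libraries left without WT replicates 1 and 3. Those nearest to *Dsc2* were *Tm4sf4* (r = 0.999), a tetraspan membrane protein, *Nt5e* (0.993), the surface enzyme CD73, and *Crisp1* (0.987), and they kept 0.998, 0.991 and 0.982 without WT replicates 1 and 3. *Tm4sf4* had 3.68, 134, 0, 142 and 34.0 normalized counts in WT replicates 1 to 5 and 309, 147, 383, 220.3 and 68.6 in KI replicates 1 to 5, the same low libraries as *Dsc2*, KI replicate 5 included. *Nt5e* passed the test (log2 fold change 0.60, adjusted p = 0.027), whereas *Tm4sf4* (1.83, adjusted p = 0.13) and *Crisp1* (2.33, adjusted p = 0.12) did not.

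The genes nearest to *Dsg2* were *Adgra3* (0.985), *Mitf* (0.981), the transcription factor of pigment cells, and *Cdk15* (0.980). Of these, *Mitf* (log2 fold change 0.64, adjusted p = 0.012) and *Cdk15* (0.82, adjusted p = 0.022) passed. Near *Dsg1b* lay *Cyp51* (0.970), *Pde12* (0.968) and *Sqle* (0.962), the first and last of which encode enzymes of cholesterol synthesis. *Dsg3* was nearest to *Slk* (0.984), *Trim41* (0.983) and *Hr* (0.979), the hairless corepressor of the hair cycle. For *Dsg1a* the nearest were *Ikbkb* (0.946), *Gpatch2* and *Epn2*, for *Dsc3* they were *Nipal1* (0.964), *Adam10* and *Pdcd6ip*, for *Dsc1* *Naa25* (0.967), *Esrp1* and *Sec16a*, for *Dsp* *Fam83g* (0.990), *Itprip* and *Larp4b*, and for *Jup* *Actr1a* (0.986), *Pkp1*, a plakophilin of the desmosome itself, and *Sult2b1*. Without WT replicates 1 and 3, r fell to 0.77 for *Esrp1* and to 0.61 for *Sec16a* with *Dsc1*, and was 0.84 or more for the genes nearest to the other 9 members.

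Of 9 other genes of the desmosome and cornified junction, 4 rose in KI and 0 fell, with a median log2 fold change of 0.40 beside 0.0076 over all genes, of which 15.3% were called higher. Those 4 were the plakophilin *Pkp2* (272 ± 34.7 against 399 ± 51.9 normalized counts, log2 fold change 0.55, adjusted p = 0.0096), corneodesmosin *Cdsn* (17549.7 ± 5121 against 26424 ± 4442, 0.59, adjusted p = 0.047), periplakin *Ppl* (19758 ± 3456 against 26038 ± 2159.8, 0.40, adjusted p = 0.034) and envoplakin *Evpl* (8862 ± 2169.9 against 12733 ± 1859.7, 0.52, adjusted p = 0.038). With the hair shaft score as a covariate none of the 4 was called, and the log2 fold changes were 0.34 for *Pkp2* (adjusted p = 0.28), 0.15 for *Cdsn* (adjusted p = 0.75), 0.16 for *Ppl* (adjusted p = 0.62) and 0.19 for *Evpl* (adjusted p = 0.67). Without WT replicates 1 and 3, *Pkp2* was called (0.44, adjusted p = 0.043) and the other 3 were not, at 0.23 to 0.32. *Pkp3* had a log2 fold change of 0.55 and an adjusted p of 0.052. *Pkp1* (0.18), *Pkp4* (0.17), *Perp* (0.19) and the low copy *Dsg1c* (0.01, at 27.0 and 27.2 normalized counts) did not pass.

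Neighbouring junctions gave other counts. Of 6 adherens junction genes 0 passed, beside 34.3% of all genes called in either direction, with a median log2 fold change of 0.28. *Ctnnb1*, the one with the most counts, measured 23463 ± 3915 and 28439.5 ± 1021 normalized counts (adjusted p = 0.085). Of 6 hemidesmosome genes, which fix basal cells to the basement membrane, 4 fell and 0 rose, with a median of -0.29, where 19.1% of all genes were called lower: *Dst* (-0.40, adjusted p = 0.022), *Itgb4* (-0.35, adjusted p = 0.022), *Itga6* (-0.29, adjusted p = 0.045) and *Cd151* (-0.22, adjusted p = 0.021). With the hair shaft covariate these were -0.15, -0.37, -0.26 and -0.16, with adjusted p from 0.23 to 0.55. Of 10 keratins that attach to desmosomes 0 passed, and the one with the most counts, *Krt10*, had a log2 fold change of -0.62 (adjusted p = 0.068).

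Among 7 transcription factors that govern epidermal and hair differentiation, 4 rose and 0 fell (median 0.53), again beside 15.3% of all genes called higher. *Grhl1*, known to act on desmosomal cadherin genes, rose by a log2 fold change of 0.53 (adjusted p = 0.016). The hair regulators *Foxn1* (1.49, adjusted p = 0.027), *Hoxc13* (1.29, adjusted p = 0.024) and *Lef1* (1.16, adjusted p = 0.024) rose more than 2-fold. All 4 had groups that did not overlap, as had 23.1% of all genes in either direction. With the hair shaft covariate none was called, and the log2 fold changes were 0.17 for *Grhl1*, 0.32 for *Foxn1*, 0.27 for *Hoxc13* and 0.37 for *Lef1*, with adjusted p from 0.11 to 0.61. Without WT replicates 1 and 3 all 4 passed, at 0.33, 0.995, 0.87 and 0.90. *Trp63* (-0.01), *Klf4* (0.05) and *Grhl3* (0.09) did not pass.

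Calls among markers of the layers and of other cells in the skin stand beside 15.3% of all genes called higher and 19.1% called lower. Of the basal list 1 of 6 genes fell (*Itga6*) and 0 rose. Of the spinous list 1 of 4 fell (*Sbsn*, -0.39, adjusted p = 0.028), and *Krt10* is given above. Of 5 granular genes measured, *Ivl* (0.58, adjusted p = 0.020) and *Cdsn* rose and *Flg2* fell (-0.76, adjusted p = 0.015). Of 7 inner root sheath genes 0 passed, although their median was 1.36 and the one with the most counts (not scaled to length), *Tchh*, had 1.501 (adjusted p = 0.10). Of 5 simple epithelium genes 2 rose, *Krt8* (1.55, adjusted p = 0.012) and *Krt18* (1.57, adjusted p = 0.044), at means of 56.4 and 103 normalized counts in WT.

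Outside the epithelium the lists fell: 9 of 9 macrophage genes (median -1.35, *Csf1r* at -1.504), 7 of 8 muscle genes (median -1.51, *Acta1* at -1.52), 4 of 6 fat genes (median -1.30, *Cidec* at -1.47), 6 of 6 endothelial genes (median -0.98, *Pecam1* at -1.09) and 3 of 6 fibroblast genes (median -0.58, *Pdgfra* at -0.88), with 0 higher in each. Of 6 sebaceous gland genes 5 fell (median -0.56, *Scd1* at -1.01). Over all tested genes, 19.1% were called lower. These lists moved with genotype in the same libraries as *Dsc2* and the plakins, and their part in those results was not tested.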

How the data were processed

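RNA from 10 skin samples was sequenced in paired ends. The authors dropped reads whose mean quality was below 20, mapped the others to mm10 with STAR 2.5.2b, counted fragments per gene with featureCounts (Subread 1.5.0-p1) and deposited these raw counts with no normalization. Strand and multimapping settings are not given in the sources used here. The study tested genotype with DESeq2. Rows with no gene name (2, holding 7.38e-05% of the counts) were left out.

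From the deposited counts, edgeR 4.0.16 (R 4.3.3) computed TMM factors, filtered with filterByExpr and fitted the robust quasi-likelihood model with genotype as the only term. P values were adjusted by the Benjamini-Hochberg method over 15543 genes, and a gene was called at an adjusted p under 0.05. Normalized counts are counts brought to a common library size by the TMM factors. FPKM used the gene lengths in the table. Ratios used counts plus 1 (scipy 1.17.1). The median biological coefficient of variation was 14.9%. On simulated data for this comparison (15596 genes, 200 of them changed), edgeR recovered 100% of the 2-fold and of the 4-fold changes, with 4.76% false calls, and DESeq2 1.42.0 had 9.5% false calls. The simulation gave every gene the same spread and put no differences of tissue between libraries. Its recovery therefore does not carry over to genes such as *Dsg4* and *Dsc2*, whose coefficients of variation in WT were 67.6% and 78.0%. Labels do not say more of how the replicates were raised, so p values measure the spread between these mice.

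Alternatives were DESeq2, limma-voom (limma 3.58.1), other scalings and filters, a replicate block, the hair shaft score as a covariate, and leaving out libraries. The 10 genes and all lists were chosen with earlier results of these data known. Genes named are the 10 members, *Zfp36*, up to 3 called genes of each list with the highest mean (the highest gene where none passed), and the 3 genes nearest to each member. *Cd151*, *Lef1*, *Pkp2* and the genes of the desmosome, regulator and adherens lists given beyond that rule were chosen after their values were seen. From the regulators, 1 gene is not reported here and was left out of that list. Lists covered the rest of the desmosome, adherens junctions, hemidesmosomes, keratins, regulators, the epidermal layers, hair shaft, inner root sheath, simple epithelium, sebaceous gland, macrophage, muscle, fat, fibroblast and endothelial markers.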

Additional observations from a re-analysis of the deposited data

Results flagged for a closer look

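In 110 groups of 5 libraries examined, 4 values stood far from the other 4 of their group by Dixon's criterion of a gap above 0.71 of the range, where chance gives about 5.5. The log2 ratio of *Dsc1* to *Dsc3* was -0.537 in KI replicate 1 and between -0.294 and -0.196 in the other KI libraries (gap 0.712). The log2 ratio of *Dsp* to *Krt5* was 0.0163 in WT replicate 5 and between -0.178 and -0.124 in the other WT libraries (gap 0.721). Both stand inside or next to the range of the other genotype. WT replicate 3, the library with the lowest hair shaft score, had 19980 normalized counts of *Dst*, the hemidesmosomal plakin, where the other WT libraries had 13860 to 14660 (gap 0.869). It also had 150100 of *Scd1*, a lipid enzyme of sebaceous glands, where the others had 67570 to 86800 (gap 0.767). No value of a desmosomal cadherin, *Dsp* or *Jup* itself met the criterion.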

How the results depend on the processing

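Of the 10 members, 1 (*Dsc2*) was called as reported, 4 by DESeq2 (*Dsg2*, *Dsg4*, *Dsc1*, *Dsc2*), 2 by limma-voom, with DESeq2 size factors or with at least 10 counts in every library (*Dsg2*, *Dsc2*), 0 without a filter, with the replicate block, with the hair shaft covariate or with KI replicate 1 alone against WT, and 0 to 2 when 1 library was left out. With a fold over 2, DESeq2 called 2, the range without 1 library was 0 to 1, and 0 were called without a filter, with the block, with the covariate, without WT replicates 1 and 3 or with KI replicate 1 alone. Over all genes, 5335 were called as reported, 2740 with the block, 39 with the covariate, 2504 without WT replicates 1 and 3, 0 with KI replicate 1 alone and 3333 to 5349 without 1 library. The alternatives with a block, a covariate or fewer libraries also had fewer samples or degrees of freedom left. Why the counts differed was not tested. Same-numbered libraries of the groups did not deviate together (r = -0.11, -0.19, -0.14, 0.085 and -0.17 for replicates 1 to 5). These values give no sign that the numbers pair the mice, but cannot exclude it, since hair content differed widely between libraries. The fit with the replicate block gave *Dsc2* a log2 fold change of 2.07 (adjusted p = 0.11).

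Some members changed sign, mostly those near 0. With limma-voom the log2 fold changes were 0.0081 for *Dsg1b*, 0.016 for *Dsg3* and 0.0047 for *Dsc3*, and with the block 0.0054, 0.012 and 0.00086. With KI replicate 1 alone *Dsg3* was 0.42 and *Dsc3* 0.15. With the hair shaft covariate *Dsg1a* was -0.0056, *Dsg4* -0.072 and *Jup* -0.11, and without WT replicate 1 *Dsg1a* was -0.0033. Without 1 library, or without WT replicates 1 and 3 together, the ranges were -0.024 to 0.082 for *Dsg1a*, -0.20 to 0.073 for *Dsg1b*, -0.34 to 0.19 for *Dsg3*, -0.16 to 0.076 for *Dsc3* and -0.045 to 0.20 for *Jup*. *Dsg2*, *Dsc1*, *Dsc2* and *Dsp* were above 0 under every alternative run, though with the hair shaft covariate *Dsg2* was at 0.03 and *Dsp* at 0.0074.

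For the ratios, 4 against 5 libraries allow no exact p below 0.016, 3 against 5 none below 0.036 and 5 pairs none below 0.062, so a lost call says little. Without 1 library the differences ranged from 1.11 to 2.04 for *Dsg4* to *Dsp*, 0.31 to 0.41 for *Dsc1* to *Dsc3*, 1.85 to 2.46 for *Dsc2* to *Dsc3*, -0.19 to -0.15 for *Jup* to *Dsp*, 0.31 to 0.44 for *Dsp* to *Krt5* and, changing sign, -0.13 to 0.18 for *Dsg1a* plus *Dsg1b* to *Dsg3*, which was 0.27 without WT replicates 1 and 3. Without those 2 libraries the first 5 were 0.84, 0.28, 1.48, -0.14 and 0.37 (adjusted p 0.14 to 0.17), and by pairs in the replicate block 1.76, 0.34, 2.15, -0.17 and 0.38 (adjusted p = 0.10).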
